A study of Mus musculus with 12 samples.

Results

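Tubulins and microtubule-associated proteins build and organise the microtubules that run through axons and dendrites. The 10 genes described here are the β-tubulins Tubb3, Tubb2a, Tubb2b, Tubb4a and Tubb5, the α-tubulin Tuba1a, the structural microtubule-associated proteins Map2, Mapt and Map1b, and the neuronal migration protein Dcx. They were taken by gene symbol from the count table, and all 10 were found among its 24489 genes. They were followed across embryonic and early postnatal stages in the spiral ganglion neurons (SGNs) of the mouse cochlea, the cells that carry sound information to the brainstem, and in the glia, otic mesenchyme (OM) and hair cells (HCs) sorted with them. The question put to the table was how the transcripts of the neuronal cytoskeleton differ between these cell types and change as the neurons mature.

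Fluorescent cells were sorted from dissociated mouse cochlea into 384-well plates and sequenced cell by cell with Smart-seq2, a full-length cDNA method without molecular identifiers. The 12 plates were labelled E14.5 (2 plates), E15.5 (2), E16.5 (3), E17.5 (1), E18.5 (2) and P3 (2). The labels give PVcre;Ai14 for all plates but 1, in which Cre under parvalbumin control switches on the tdTomato reporter, and TrkCcre for 1 of the E14.5 plates. The study's methods name the Ntrk3 Cre driver (Ntrk3 encodes TrkC) for E14.5, so the driver of the other E14.5 plate was left as labelled. All groups carry a tdTomato reporter and were sorted for red cells, and the P3 plates came from an earlier study of the same authors. Cochleae of several animals were pooled, so plates of a stage may share animals and p-values measure the spread between plates, which may be technical. A plate was the replicate: within each plate the reads of all cells given the same class were added up, which gave 33 sums, and levels are given as normalised CPM, counts scaled to a common library size with the trimmed mean of M-values (TMM).

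Of 4608 wells, 4226 were kept, and the totals per plate ranged from 80997594 to 303906928 counts. Cells were clustered without any of the microtubule genes described here and clusters were named from marker genes, which gave 2268 SGN-like, 1255 glia-like, 546 OM-like and 74 HC-like cells. Stage and plate series were largely the same thing: the series SS2_20 held E14.5, E15.5, 1 plate of E16.5 and E17.5, while the other E16.5 plates, E18.5 and P3 each came from a series of their own. Median genes per SGN-like cell were 5775 to 7338 in SS2_20 and 8383 to 9342 elsewhere. Summed glia markers in the SGN-like sums were 48.4 to 208 normalised CPM in SS2_20, 4290 to 4301 at E18.5 and up to 5039 at P3, and 149 of 308 and 163 of 318 SGN-like cells of the E18.5 plates were set down as mixed for carrying markers of another class. In the glia-like and OM-like sums outside SS2_20 the neuron markers stood at 33.0 to 53.3% of the SGN-like level of the same plate, against 1.56 to 5.93% within SS2_20. Comparisons between classes therefore used SS2_20 alone, except for the hair cells, which were numerous enough only at E18.5. HC-like sums held hair cell markers at 3998 to 9410 normalised CPM and supporting cell markers at 7808 to 11597, and cochlear and vestibular hair cells were not separated. Neuron markers in the HC-like sums stood at 14.2 and 17.0% of the SGN-like level of the same plate at E18.5 and 13.7% at E17.5. Glia markers in these sums stood at 1313 to 2532 normalised CPM.

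Microtubules are hollow polymers of α- and β-tubulin dimers. The β-tubulin isotypes are nearly the same protein except for the acidic carboxy-terminal tail, where motors and associated proteins bind and where glutamate chains are added. Tubb3 is the classical neuronal isotype, Tubb2a and Tubb2b are abundant in brain, Tubb4a is neuronal and oligodendroglial, and Tubb5 is expressed widely and in dividing cells. Map2 is known from dendrites and cell bodies, tau (Mapt) from axons, Map1b from growing axons, and doublecortin (Dcx) from migrating and immature neurons.

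The ends of the coding sequences are shown because they carry the tail that separates the isotypes, and because they show which members' reads can be told apart. Each is the last 105 coding bases with the stop codon, in exon 4 of 4, read from the mm10 transcripts. Lower case runs to the end of a 20-base stretch that all of them share, and capitals mark what follows it. Tubb4b, a β-tubulin that is no member, is included because it led the isotypes of the HC-like cells at E18.5. In order, they lie at chr8:123421578-123421682 (plus strand), chr13:34074468-34074572, chr13:34127471-34127575, chr17:57080690-57080794, chr17:35834982-35835086 and chr2:25222308-25222412 (all minus strand).
Tubb3: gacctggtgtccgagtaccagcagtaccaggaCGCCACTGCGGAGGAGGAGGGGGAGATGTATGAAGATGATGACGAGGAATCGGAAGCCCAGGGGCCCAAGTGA
Tubb2a: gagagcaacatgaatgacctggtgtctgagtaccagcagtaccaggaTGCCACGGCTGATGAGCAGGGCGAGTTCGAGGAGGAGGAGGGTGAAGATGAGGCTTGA
Tubb2b: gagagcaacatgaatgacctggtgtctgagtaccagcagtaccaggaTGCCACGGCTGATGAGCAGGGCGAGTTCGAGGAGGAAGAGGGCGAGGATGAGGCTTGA
Tubb4a: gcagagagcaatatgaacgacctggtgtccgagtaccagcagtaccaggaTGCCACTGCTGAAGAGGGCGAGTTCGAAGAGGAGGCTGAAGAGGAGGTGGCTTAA
Tubb5: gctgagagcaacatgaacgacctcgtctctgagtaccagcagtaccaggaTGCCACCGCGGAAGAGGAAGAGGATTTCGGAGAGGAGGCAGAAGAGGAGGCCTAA
Tubb4b: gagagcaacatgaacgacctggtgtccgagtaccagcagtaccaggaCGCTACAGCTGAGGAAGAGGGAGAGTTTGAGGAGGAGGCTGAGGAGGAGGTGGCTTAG

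Tubb3 had the longest tail, with 73 bases after the shared stretch against 55 to 58 in the others, and it codes for 450 residues against 444 or 445. Tubb2a and Tubb2b, neighbours on chromosome 13, were identical at 102 of the last 105 bases and over 96.49% of the coding sequence, whereas the other pairs were 82.1 to 84.19% identical. Of the 50-base windows of its annotated transcripts, Tubb2a had 50.42% and Tubb2b 63.07% found in no other gene, and Tuba1a 24.46%, with Tuba1c as the gene that shared most of them. Tubb3, Tubb4a, Tubb5, Map2, Mapt, Map1b and Dcx had at least 99.8% of such windows. Tubb4b had 58.71%. Since the study counted uniquely mapped reads, the levels of Tubb2a, Tubb2b, Tuba1a and Tubb4b rest on fewer positions than their length gives.

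In the SS2_20 plates every member was highest in the SGN-like cells, and the classes differed most for Tubb3, Mapt and Dcx. Tubb3 stood at 2363 ± 730 normalised CPM (SD, n = 6 plates) in SGN-like, 25.0 ± 11.1 in glia-like and 6.95 ± 5.79 in OM-like cells. By plate it lay between 1743 and 3562 with a median of 2000 in SGN-like, between 14.7 and 44.6 with a median of 21.6 in glia-like, and between 0.322 and 13.0 with a median of 7.36 in OM-like cells. No glia-like or OM-like plate came near any SGN-like plate, and the glia-like level was 1.04 ± 0.203% of the SGN-like level of the same plate. Tau (Mapt) had 1493 ± 204 normalised CPM in SGN-like cells and 14.7 ± 5.13 in glia-like cells, or 0.973 ± 0.268% plate by plate. Doublecortin (Dcx) had 882 ± 133.2 and 8.77 ± 2.94 normalised CPM, or 1.01 ± 0.356%.

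The other members were present at some level in every class. The glia-like level was 5.40 ± 1.29% of the SGN-like level for Map1b, 9.95 ± 2.32% for Tubb2a, 10.6 ± 3.06% for Map2, 10.8 ± 1.63% for Tubb4a, 11.1 ± 1.55% for Tubb2b and 15.3 ± 0.868% for Tuba1a. The mean ± SD intervals of Tubb2a, Map2, Tubb4a and Tubb2b overlapped. Tubb5, the widely expressed isotype, stood apart with 47.9 ± 6.51% in glia-like and 45.3 ± 5.25% in OM-like cells. Its levels were 5645 ± 943, 2684 ± 435 and 2554 ± 479 normalised CPM in SGN-like, glia-like and OM-like cells, and all 6 SGN-like plates, at 4946 to 7381, lay above all glia-like and OM-like plates, the highest of which reached 3252. A set of 12 cell cycle genes, summed, stood at 162 to 237 normalised CPM in the SGN-like sums of SS2_20, 2148 to 3373 in the glia-like and 936 to 2395 in the OM-like sums. The part of proliferation in the Tubb5 level was not tested.

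All 10 members were lower in glia-like than in SGN-like cells, a comparison in which 52.2% of 15970 genes passed an adjusted p of 0.05 (24.0% in this direction), and all 10 were lower in OM-like than in SGN-like cells, where 52.9% passed (26.2% lower). The log2 difference in glia-like cells ran from −6.70 ± 0.569 (SE, Mapt) and −6.61 ± 0.604 (Tubb3) to −1.08 ± 0.0906 (Tubb5, adjusted p = 1.0648e-07, edgeR quasi-likelihood test over all genes). The median of the 10 differences was −3.30, against 0.08 over all genes tested. In OM-like cells the difference ran from −8.43 ± 0.664 (Tubb3) to −1.10 ± 0.0906 (Tubb5), with a median of −3.93 against −0.05 over all genes.

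Glia-like and OM-like cells differed less from each other. Of the 10 members, 5 passed the test between them, where 25.2% of all genes did (11.6% higher and 13.6% lower in OM-like cells). Tubb2a was higher in OM-like cells by 0.64 ± 0.181 on the log2 scale (edgeR adjusted p = 0.0171), with 125 ± 31.6 normalised CPM against 83.0 ± 12.3. Tubb3, Mapt, Tubb4a and Tuba1a were lower in OM-like cells, by log2 differences of −1.83 ± 0.520, −1.69 ± 0.483, −0.48 ± 0.102 and −0.32 ± 0.0826. Tubb3 and Mapt were near the count floor in some OM-like sums. They stood at 0.322 and 0.161 normalised CPM in that of the second E15.5 plate, which held 5871864 counts. Leaving out the first E15.5 plate ended the calls of Tubb2a, Tubb3 and Tuba1a, leaving out the second also ended that of Tubb2a, and leaving out the E16.5 plate of SS2_20 ended that of Mapt. The summed neuron markers also stood higher in glia-like (512 to 749 normalised CPM) than in OM-like sums (182 to 318) of these plates. OM markers stood at 1442 to 5459 in the glia-like sums, and glia markers at 204 to 1805 in the OM-like sums. Endothelial markers stood at 247 to 487 in OM-like and 3.36 to 11.5 in glia-like sums. The part of these markers in the differences was not tested.

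**Figure D1:**
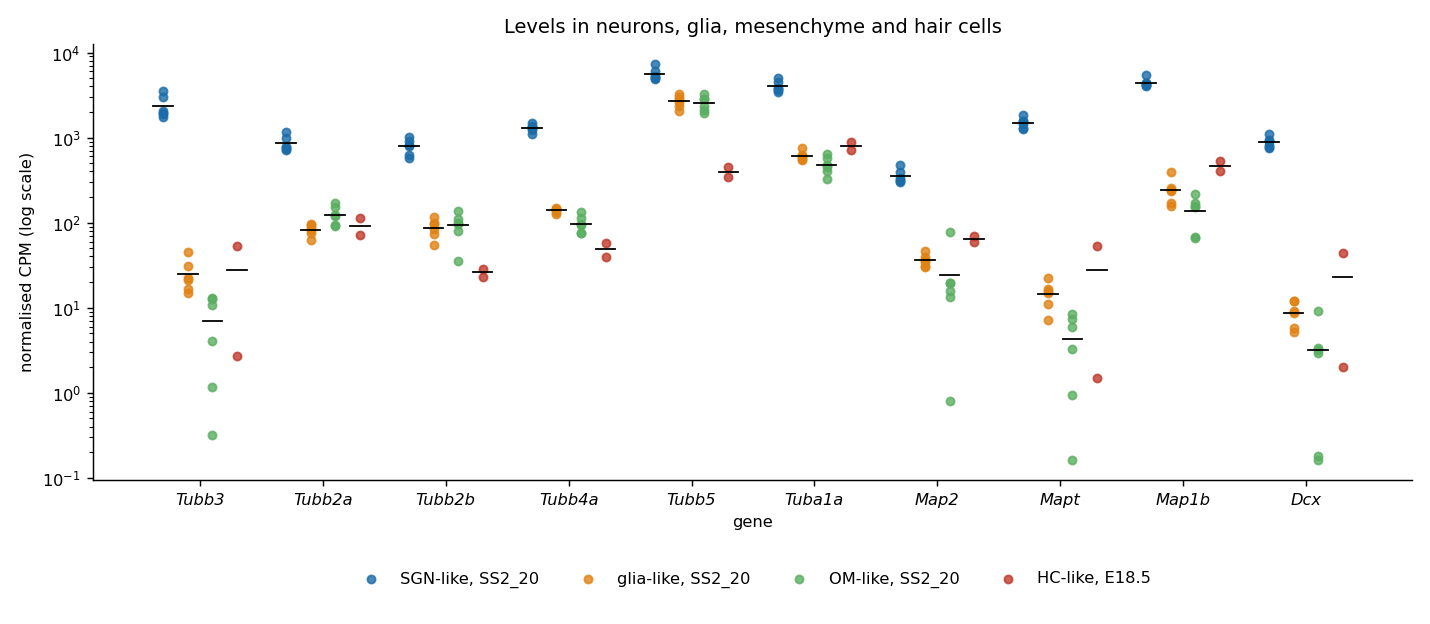
Normalised CPM of the 10 genes on a log axis, 1 point per plate and class, with the mean as a black bar. SGN-like, glia-like and OM-like points are the 6 SS2_20 plates and HC-like points the 2 E18.5 plates. Tubb3, Mapt and Dcx have the widest gap between SGN-like cells and the other classes, and Tubb5 the narrowest gap to glia-like and OM-like cells.

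Between genes, levels were set side by side per kilobase of annotated exon, which overstates the length of genes with many alternative exons such as Map2. Among the non-tubulin members, Map2, Mapt and Dcx had more distinct 50-base windows (16910, 7893 and 12741) than exon bases (16449, 7531 and 12647). Map1b did not (15789 against 15846). On this scale the order in SGN-like cells of SS2_20 was Tuba1a (2243 ± 336 normalised CPM per kb, n = 6), Tubb5 (1697 ± 283), Tubb3 (1265 ± 391), Tubb4a (586 ± 59.7), Tubb2a (534 ± 109), Tubb2b (343 ± 71.6), Map1b (278 ± 31.3), Mapt (198 ± 27.1), Dcx (69.7 ± 10.5) and Map2 (21.6 ± 4.00). Plate by plate, Tuba1a lay above Tubb5 and Tubb5 above Tubb3 in 6 of 6 plates, although their mean ± SD intervals overlapped. The neighbours Tubb4a and Tubb2a, and Tubb2b and Map1b, also overlapped and changed places in the E17.5 plate, so their order was not the same in all plates. The place of Tubb2a also depended on the length scale. Counted over windows found in no other gene, its share of β-tubulin exceeded that of Tubb4a at E14.5 (15.4 against 10.1%). At E17.5 it stood at 28.4%, above Tubb4a (10.8%) and Tubb3 (21.2%). In raw counts Tubb5 was among the 5 most abundant genes of the SGN-like sum in every embryonic plate, and Map1b ranked second in the E17.5 and E18.5 plates.

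Across the stages of the neurons, Tubb3 was highest at E14.5 and lower by E15.5. Its level was 2966 and 3562 normalised CPM in the E14.5 plates, 1743 and 1905 at E15.5, 2062, 2076 and 1949 at E16.5, 2051 at E17.5, 1720 and 1595 at E18.5, and 1581 and 1580 at P3. Both E14.5 plates lay above every later plate, the E15.5 plates lay below those of E16.5 and E17.5, and the E17.5 plate lay within the range of E16.5. From E14.5 to E15.5, within the same plate series, Tubb3 fell by 0.89 ± 0.0936 on the log2 scale (edgeR adjusted p = 0.00104), and by 1.00 without the TrkCcre plate. From E14.5 to E16.5 it fell by 0.83 ± 0.0838 (adjusted p = 0.000158), and by 0.79 within SS2_20 (adjusted p = 0.00992). The later steps did not pass, at −0.30 ± 0.0854 from E16.5 to E18.5 (adjusted p = 0.0774) and −0.06 ± 0.0929 from E18.5 to P3 (adjusted p = 0.71).

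Tubb5 and the α-tubulin Tuba1a fell over the same first day. Tubb5 had 6073 and 7381 normalised CPM at E14.5 and 4946 and 5036 at E15.5, and Tuba1a 4480 and 5069 against 3477 and 3789. The groups did not overlap for either gene. The log2 changes were −0.48 ± 0.0995 for Tubb5 and −0.44 ± 0.0792 for Tuba1a (edgeR adjusted p = 0.0201 and 0.0102). These were the 3 members called of 10 between E14.5 and E15.5, a comparison added after the levels were seen, where 6.25% of 17675 genes passed (2.79% lower). The call of Tubb5 over this day was lost without the PVcre;Ai14 plate of E14.5 and without either E15.5 plate, and that of Tuba1a without the former and without the first E15.5 plate. Median genes per SGN-like cell were 5775 and 5795 at E14.5 and 6537 and 6562 at E15.5, and their part was not tested. At E16.5 Tubb5 stood at 6577 and 6456 normalised CPM in the SS2_18 plates and 5115 in the SS2_20 plate, and at E17.5 at 5321. Tuba1a stood at 4457, 4338 and 3672, and at 3780. For Tubb5 both SS2_18 plates thus lay above the lower E14.5 plate, while for Tuba1a they lay below both E14.5 plates.

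Tubb2a and Tubb2b, whose sequences are so alike, moved in opposite directions. Tubb2a had 739 and 721 normalised CPM at E14.5, 779 and 772 at E15.5, 1224, 1173 and 985 at E16.5, 1158 at E17.5, 1287 and 1196 at E18.5, and 1924 and 1839 at P3. Tubb2b had 900 and 1006 at E14.5, 819 and 627 at E15.5, 591, 526 and 798 at E16.5, 569 at E17.5, 376 and 325 at E18.5, and 157 and 164 at P3. The P3 plates were above all others for Tubb2a and below all others for Tubb2b.

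Tubb2a rose from E14.5 to E16.5 by 0.48 ± 0.0795 on the log2 scale (edgeR adjusted p = 0.00285), and by 0.39 with the E16.5 plate of SS2_20 alone (adjusted p = 0.0424). It rose again from E18.5 to P3 by 0.61 ± 0.0861 (adjusted p = 0.000569). Tubb2b fell by 0.71 ± 0.198 from E14.5 to E16.5 (adjusted p = 0.0353), by 0.88 ± 0.205 from E16.5 to E18.5 (adjusted p = 0.0362) and by 1.12 ± 0.222 from E18.5 to P3 (adjusted p = 0.00405). Only the last of these 3 falls passed under every alternative tried: the first was −0.30 within SS2_20 (adjusted p = 0.372) and was lost without any of the E14.5 plates or either SS2_18 plate, and the second was lost without either E18.5 plate, without the first SS2_18 plate, and with mixed cells left out (−0.64, adjusted p = 0.11).

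Tubb4a showed no single direction. It had 1303 and 1350 normalised CPM at E14.5, 1356 and 1103 at E15.5, 1380, 1371 and 1495 at E16.5, 1221 at E17.5, 1015 and 978 at E18.5, and 1347 and 1262 at P3. Only the E18.5 plates fell below the range of all other plates. The log2 change was −0.52 ± 0.115 into E18.5 (edgeR adjusted p = 0.0294) and 0.40 ± 0.124 out of it (adjusted p = 0.038). Each call was lost without either E18.5 plate and with mixed cells left out, at −0.40 (adjusted p = 0.0751) and 0.22 (adjusted p = 0.227). The second was lost also without either P3 plate.

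**Figure D2:**
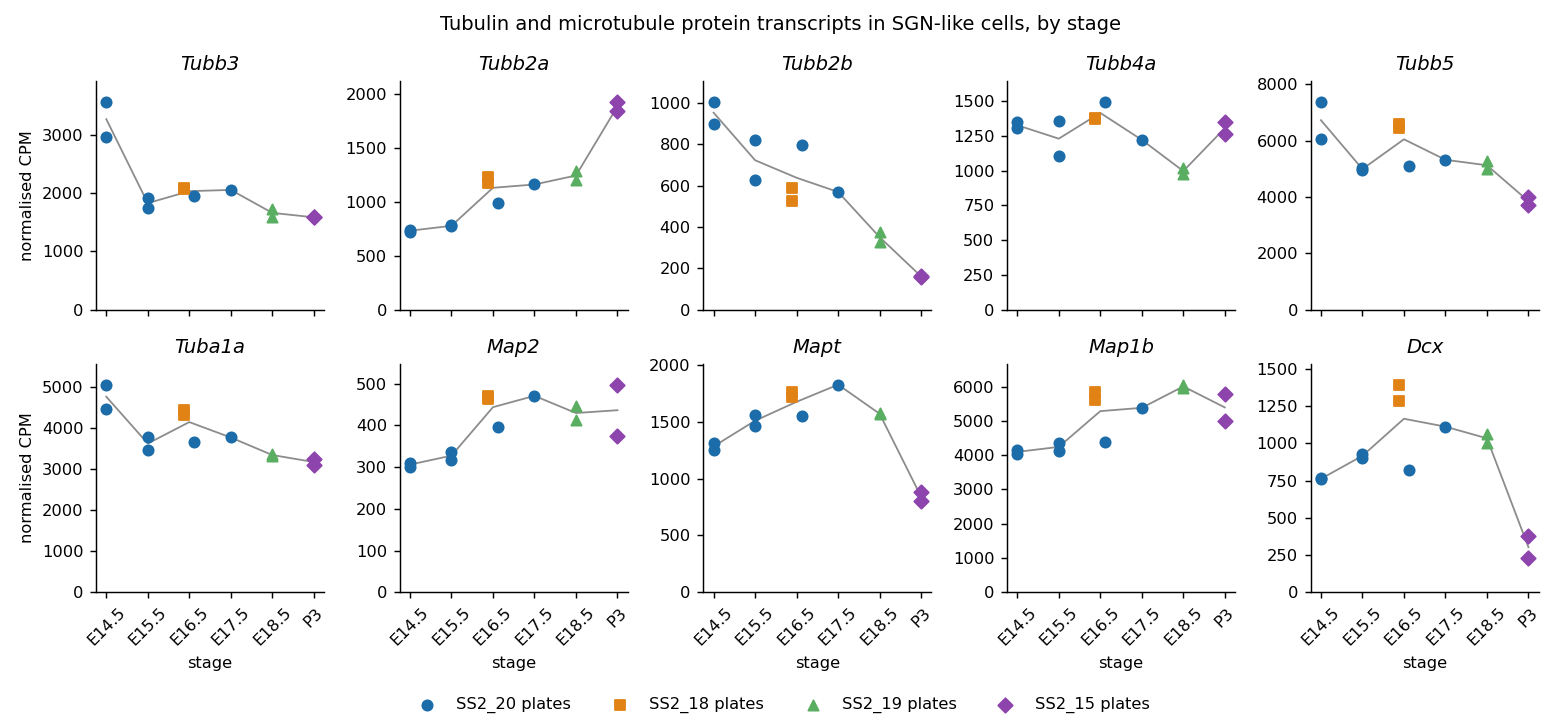
Normalised CPM of the 10 genes in SGN-like cells by stage, 1 point per plate, with colour and shape for the plate series and a grey line through the stage means. Each axis starts at 0. Tubb2b, Mapt and Dcx are lowest in the P3 plates, Tubb2a is highest there, and Tubb3 is highest in the E14.5 plates.

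Among the microtubule-associated proteins, Dcx and Mapt were lowest at P3, while Map2 and Map1b were not. Dcx had 759 and 767 normalised CPM at E14.5, 902 and 932 at E15.5, 1395, 1284 and 819 at E16.5, 1113 at E17.5, 1002 and 1067 at E18.5, and 375 and 232 at P3. Both P3 plates lay below every embryonic plate. Within E16.5 the plate of SS2_20, at 819, lay below both plates of SS2_18. From E18.5 to P3 Dcx fell by 1.76 ± 0.22 on the log2 scale (edgeR adjusted p = 0.000285), the largest fall of a member over these steps.

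Mapt rose little and then fell. It had 1312 and 1254 normalised CPM at E14.5, 1557 and 1462 at E15.5, 1758, 1721 and 1549 at E16.5, 1826 at E17.5, 1573 and 1568 at E18.5, and 879 and 802 at P3. The P3 plates were again below all others. The fall from E18.5 to P3 was 0.89 ± 0.0816 on the log2 scale (edgeR adjusted p = 5.8128e-05), while the step from E14.5 to E16.5, at 0.24 ± 0.0745, did not pass (adjusted p = 0.0529).

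Map2 had 311 and 301 normalised CPM at E14.5, 318 and 337 at E15.5, 464, 471 and 396 at E16.5, 471 at E17.5, 412 and 447 at E18.5, and 498 and 375 at P3. The E14.5 plates were below all plates from E15.5 on, and from E16.5 the stages overlapped. Its rise from E14.5 to E16.5 was 0.39 ± 0.111 on the log2 scale (edgeR adjusted p = 0.039) and was lost within SS2_20 (0.33, adjusted p = 0.254) and without any of the E14.5 or SS2_18 plates.

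Map1b had 4044 and 4144 normalised CPM at E14.5, 4356 and 4124 at E15.5, 5611, 5844 and 4391 at E16.5, 5378 at E17.5, 6054 and 5950 at E18.5, and 5780 and 5001 at P3. The embryonic plates outside SS2_20 were all above those of SS2_20. No step of Map1b passed the edgeR test (adjusted p = 0.128 from E14.5 to E16.5, 0.325 to E18.5 and 0.325 to P3). With mixed cells left out it rose by 0.38 from E16.5 to E18.5 (adjusted p = 0.036), and from E18.5 to P3 it was called lower with mixed cells left out and with plain library totals.

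Counted over the members, 6 of 10 were called from E14.5 to E16.5 (2 higher, 4 lower), where 15.7% of 17675 genes were (9.41% higher, 6.30% lower), and 3 of them remained called with the E16.5 plate of SS2_20 alone: Tubb3, Tubb2a and Tuba1a. The log2 changes of Tubb5 and Tuba1a over this step were −0.30 ± 0.0901 and −0.35 ± 0.0717 (edgeR adjusted p = 0.0462 and 0.0092). Tubb5 lost its call under 10 alternatives and Tuba1a without the PVcre;Ai14 plate of E14.5 (−0.24, adjusted p = 0.111). From E16.5 to E18.5, 3 of 10 were called, all lower (Tubb2b, Tubb4a and Tuba1a at −0.31 ± 0.0728), where 4.89% of genes were (2.23% lower). None of these 3 passed with the mixed cells left out, nor without either E18.5 plate. From E18.5 to P3, 6 of 10 were called (2 higher, 4 lower), where 25.0% of genes were (12.8% higher, 12.2% lower). Tubb5 was the remaining member of that step, with 5268 and 4984 normalised CPM at E18.5, 3986 and 3714 at P3, and a log2 change of −0.40 ± 0.0994 (adjusted p = 0.013). This call was lost without the first E18.5 plate (adjusted p = 0.0762) and without the second P3 plate (adjusted p = 0.0647).

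The scaling mattered at P3. TMM raised the P3 levels by 0.27 on the log2 scale relative to E18.5, and the E16.5 levels by 0.11 relative to E14.5. With plain library totals, an alternative chosen after seeing the data, 8 members were called from E18.5 to P3: Tubb3, Tuba1a and Map1b were then lower by −0.34, −0.35 and −0.43 as well, and Tubb4a, at 0.12, was no longer called. With mixed cells left out, 8 were called too, again with Tubb3 (−0.28), Tuba1a (−0.27) and Map1b (−0.41) lower. That alternative removed about as many cells as it kept at E18.5 but only 3 of 376 and 3 of 125 SGN-like cells at P3. The glia limit of E18.5 came from the glia-like cells of that stage. At P3 no cells were named glia-like, and the limit came from those of all stages. The SGN-like sums of P3 were thus left almost whole, although their glia markers reached those of E18.5. The directions of Tubb2a, Tubb2b, Tubb5, Mapt and Dcx were kept and passed under both. Within SS2_20, the change per day over E14.5 to E17.5 called 0 of 10 members in SGN-like cells (edgeR quasi-likelihood test), where 2.57% of 16741 genes were called and 2361 had an unadjusted p under 0.05. DESeq2 also called 0 of 10. The members with an unadjusted p under 0.05 were Tubb2a (0.21 ± 0.0944 per day on the log2 scale) and Tuba1a (−0.13 ± 0.0576). The edgeR fit took SGN-like, glia-like and OM-like sums together, with a shared spread for each gene. Standard errors were 0.231 to 0.2997 for Tubb3, Mapt, Map2 and Dcx, against 0.0576 to 0.107 for the other members. The test therefore cannot decide whether Tubb3, Mapt, Map2 or Dcx changed per day in the neurons. In the step test, Tubb3 fell within SS2_20 from E14.5 to E15.5.

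**Figure D3:**
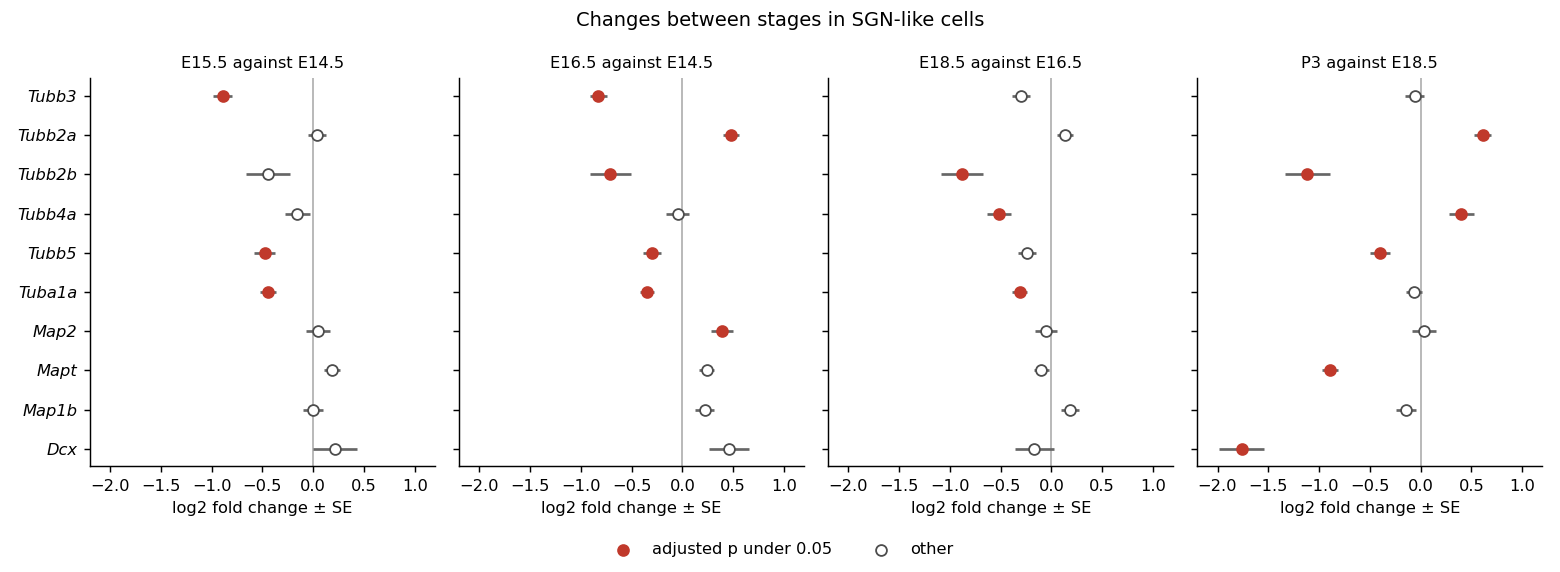
Log2 fold change with its standard error (horizontal bar) for each gene in SGN-like cells, 1 panel per step between stages. Filled red points passed an adjusted p of 0.05 in the edgeR test. Most filled points lie left of 0, Tubb2a is to the right in the E16.5 and P3 panels, and Dcx at P3 is farthest from 0.

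The makeup of the β-tubulin transcripts shifted with stage. Shares were computed per kilobase of exon over 8 β-tubulin genes. In SGN-like cells Tubb3 went from 33.0 ± 0.852% (SD, n = 2 plates) at E14.5 to 25.3 ± 1.94% at E15.5 and 21.5 ± 0.632% at P3. Tubb2a went from 8.63 ± 1.04% to 12.5 ± 0.1%, 15.3 ± 0.79% at E16.5 (n = 3), 20.0 ± 0.12% at E18.5 and 29.6 ± 0.063% at P3, without overlap between E14.5, E15.5, E16.5, E18.5 and P3. Tubb2b went from 7.87 ± 0.198% at E14.5 to 3.96 ± 0.22% at E18.5 and 1.77 ± 0.104% at P3. Tubb5 held 38.2 ± 1.31% at E14.5, 39.9 ± 0.273% at E18.5 and 29.3 ± 0.593% at P3, and Tubb4a 11.3 to 14.8% over the stage means.

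Counting length only over the windows that no other gene shares, a scale also chosen after seeing the data, Tubb2a went from 15.4 ± 1.69% at E14.5 to 45.2 ± 0.134% at P3 and Tubb3 from 28.9 ± 1.07% to 16.0 ± 0.458%. The 2 scales place Tubb2a differently but give the same direction. Outside the neurons, again per kilobase of exon, Tubb5 held 75.2 ± 2.46% of the β-tubulin transcript in glia-like and 73.9 ± 4.68% in OM-like cells (n = 6 plates). Tubb3 held 1.22 ± 0.396% and 0.362 ± 0.292%. In the HC-like cells of E18.5 Tubb4b held 47.4 ± 2.91% (n = 2), Tubb5 28.0 ± 1.43% and Tubb2a 13.2 ± 1.12%. Over windows found in no other gene, Tubb4b held 54.4 ± 2.97% and Tubb5 18.6 ± 0.82% there. In the 5 HC-like cells of E17.5 Tubb5 led per kilobase of exon with 54.1% against 28.9% for Tubb4b. Over windows found in no other gene these shares were close, at 40.3 and 37.1%. The summed cell cycle genes stood at 1233 normalised CPM in these 5 cells, against 152 and 169 in the HC-like sums of E18.5. Summed hair cell markers stood at 3998, against 8667 and 9410. The part of either in this difference was not tested. In the SGN-like cells of the E18.5 plates Tubb4b made up 1.40 ± 0.012% per kilobase of exon.

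**Figure D4:**
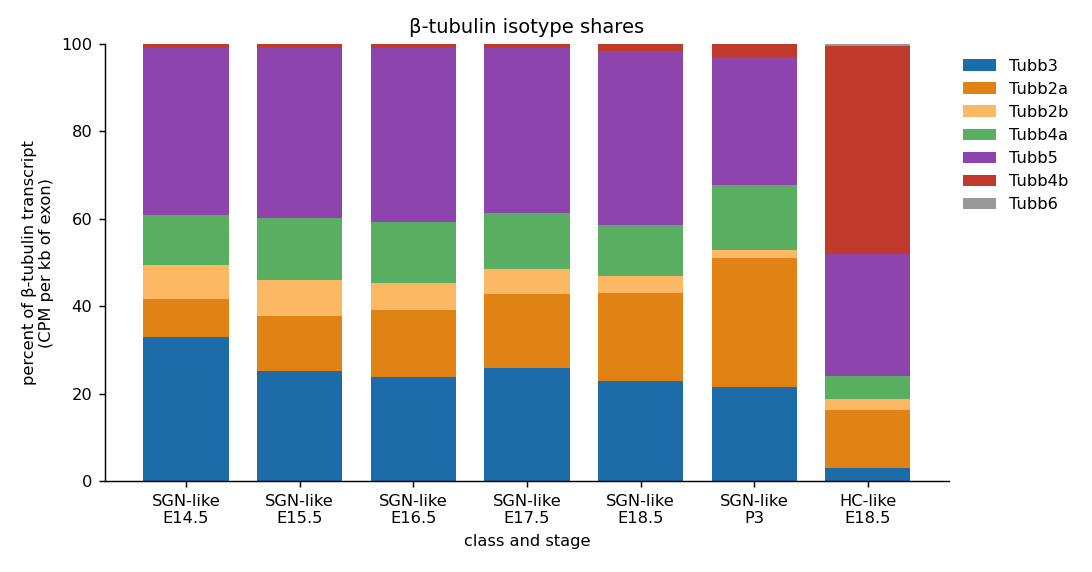
Stacked percent of β-tubulin transcript by isotype, in normalised CPM per kb of exon, as the mean over plates of each class and stage (2 plates, 3 at E16.5 and 1 at E17.5). In SGN-like cells the Tubb2a part widens from 8.63% at E14.5 to 29.6% at P3, and in the HC-like cells of E18.5 Tubb4b takes 47.4%.

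In the HC-like cells all 10 members were lower than in the SGN-like cells of the same E18.5 plates, a comparison in which 57.2% of 16072 genes passed (29.4% in this direction). Tuba1a had 717 and 893 normalised CPM in the HC-like sums and 3384 and 3319 in the SGN-like sums, the smallest gap, at −1.99 ± 0.13 on the log2 scale (edgeR adjusted p = 0.000269). Map2 (−2.66), Map1b (−3.62), Tubb5 (−3.62), Tubb2b (−3.68), Tubb2a (−3.69) and Tubb4a (−4.28) followed. Map1b stood at 405 and 526 normalised CPM and Tubb5 at 342 and 451 in the HC-like sums, each far below both SGN-like sums. The median over the members was −3.68, against −0.06 over all genes.

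Tubb3, Mapt and Dcx were near 0 in the first of these plates and not in the second. Tubb3 had 2.71 and 52.6 normalised CPM, Mapt 1.49 and 53.4, and Dcx 2.01 and 44.0. In the second plate, 2 of the 32 HC-like cells, those with at least 50 CPM of each of these genes, held 88.0% of the Tubb3, 94.5% of the Mapt and 96.8% of the Dcx reads. In the other 30 cells Tubb3 stood at 6.72, Mapt at 3.13 and Dcx at 1.52 CPM, and in the first plate no cell of 37 passed that limit. The log2 differences from SGN-like cells, −5.84 ± 1.31, −5.77 ± 1.46 and −5.42 ± 1.28, had the widest errors of all members (edgeR adjusted p = 0.0151, 0.0222 and 0.0179). In the 5 HC-like cells of E17.5, which were not tested, Tubb3 and Dcx had no count, which allows up to 2.94 CPM on this sum of 1018875 counts before scaling, while Tubb5 stood at 984 and Tuba1a at 702 normalised CPM.

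Outside the neurons, the change per day passed the test for Map1b alone among the members. In the glia-like cells of SS2_20, 0 of 10 passed a change per day (edgeR quasi-likelihood test), where 0.137% of 16741 genes did and 1064 had an unadjusted p under 0.05, while DESeq2 called 1, Map1b. In OM-like cells 1 of 10 did, where 0.824% did (0.514% lower). Map1b in OM-like cells had 216 and 172 normalised CPM at E14.5, 159 and 152 at E15.5, 65.8 at E16.5 and 67.2 at E17.5. In glia-like cells it had 170 and 159 at E14.5, 233 and 253 at E15.5, 244 at E16.5 and 395 at E17.5. The OM-like plates of E16.5 and E17.5 lay below all earlier ones, and the glia-like plates of E14.5 below all later ones.

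Map1b in OM-like cells fell by 0.56 ± 0.0826 per day on the log2 scale (edgeR adjusted p = 0.00591), and in glia-like cells its slope was 0.38 ± 0.0767 (adjusted p = 0.0845). The fall in OM-like cells was lost with cells weighted equally (−0.70, adjusted p = 0.0708), without both E14.5 plates (−0.66, adjusted p = 0.0506), without the TrkCcre plate (−0.54, adjusted p = 0.0967) and without the E17.5 plate (−0.66, adjusted p = 0.187). Tuba1a had the next lowest adjusted p in OM-like cells, with −0.26 ± 0.06 per day (adjusted p = 0.0649). The difference of the slopes, OM-like minus glia-like, was −0.94 ± 0.112 (adjusted p = 0.00344), the only member of 10 called, where 0.108% of genes were (0.0717% lower). This comparison was added after the data were seen. It was lost without the TrkCcre plate (−0.92, adjusted p = 0.101), without the E17.5 plate (−0.98, adjusted p = 0.219) and without both E14.5 plates (−0.99, adjusted p = 0.103). Glia-like minus SGN-like slopes called 0 of 10 members, where 0.597% of genes were called and 1512 had an unadjusted p under 0.05. For Tubb3, Mapt, Map2 and Dcx this difference had standard errors of 0.341 to 0.421 in the same shared fit, so it cannot decide for them. Summed OM markers in the OM-like sums were 8904 and 9887 normalised CPM at E14.5 and 15400 to 22901 later, and summed glia markers in the glia-like sums 12036 and 12963 at E14.5 and 16766 to 22026 later. Their part in the slopes was not tested, nor was that of the markers of other classes in these sums.

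**Figure D5:**
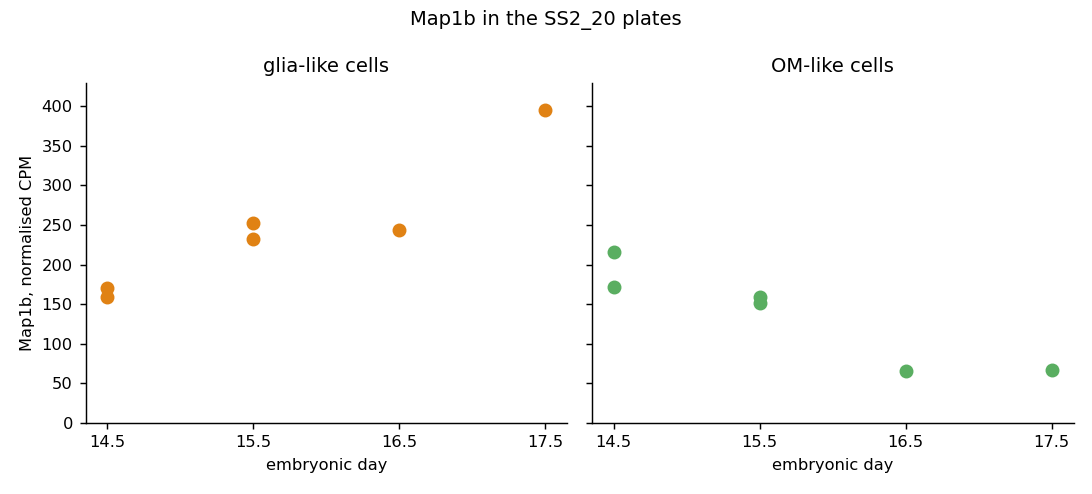
Map1b in normalised CPM by embryonic day in glia-like (left) and OM-like (right) cells, 1 point per SS2_20 plate. The glia-like points go from 159 and 170 at E14.5 to 395 at E17.5, and the OM-like points from 172 and 216 to 67.2.

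The wider microtubule apparatus was followed with 107 further genes, of which 105 were in the table. Over the steps in SGN-like cells, 15 of the 101 tested rose and 7 fell from E14.5 to E16.5, 4 rose and 4 fell to E18.5, and 27 rose and 28 fell to P3. Over all genes tested, 9.41% rose and 6.30% fell to E16.5, and 4.89% were called to E18.5 (2.23% lower). To P3, 12.8% rose and 12.2% fell. Dync1i1, the intermediate chain of cytoplasmic dynein, rose at each step, from 18.2 ± 0.0552 normalised CPM at E14.5 (n = 2) to 87.9 ± 3.13 at E16.5 (n = 3), 337 ± 16.3 at E18.5 and 921 ± 54.5 at P3, with log2 changes of 2.13, 1.93 and 1.46 (edgeR adjusted p of 6.5899e-05 or lower for each). The α-tubulin Tuba4a rose from 43.0 ± 11.5 to 156 ± 13.2, 239 ± 14.8 and 470 ± 26.5 normalised CPM. Map1a, the mature-neuron relative of Map1b, rose from 110 ± 22.0 at E16.5 to 221 ± 23.2 at E18.5 and 477 ± 27.0 at P3. Mtus2 fell from 276 ± 32.5 to 178 ± 35.8, 60.6 ± 1.12 and 25.2 ± 2.04.

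Other genes named by rule ranked high in 1 or 2 steps. Tuba1c, whose reads can be shared with Tuba1a, was called higher at E16.5 with a wide spread, 16.1 ± 13.3 against 0.481 ± 0.139 normalised CPM. Its share of the α-tubulin transcript per kilobase was 0.430 and 0.369% in the SS2_18 plates of E16.5 but 0.0201% in the SS2_20 plate, against 0.0065 and 0.0087% at E14.5. Dclk3, a doublecortin-like kinase, fell from 94.0 ± 10.7 to 42.0 ± 13.5 from E14.5 to E16.5 and from 27.5 ± 3.08 to 7.32 ± 0.365 from E18.5 to P3, and the tubulin chaperone Tbcc fell from 111 ± 1.43 to 63.3 ± 14.7 over the first of these steps. Ttll7, a tubulin polyglutamylase, fell from 299 ± 35.98 normalised CPM at E14.5 to 217 ± 17.9 at E16.5 and 143.2 ± 7.48 at E18.5 and rose to 227 ± 2.46 at P3, passing the test at each step. Map7d1 fell from 258 ± 14.1 at E16.5 to 182 ± 0.195 at E18.5. At P3 Klc2, a kinesin light chain, was higher (51.0 ± 4.89 against 23.1 ± 2.67), while Ttll6, Kif26a and Katnal2 were called at mean levels of at most 7.26 normalised CPM at either stage. From E14.5 to E15.5, 4 of 101 genes rose, led by the kinesin Kif21b, Map9 and the kinesin Kif21a, and 1 fell, the α-tubulin Tuba1b. Of all genes, 6.25% were called over this step (2.79% lower).

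Against SGN-like cells, 14 of 100 tested genes were higher and 63 lower in glia-like cells, and 12 higher and 65 lower in OM-like cells. Over all genes, 52.2% were called in glia-like cells (24.0% lower) and 52.9% in OM-like cells (26.2% lower). Higher in both were Tuba1c (22.8 ± 6.58 normalised CPM in glia-like, 30.9 ± 8.19 in OM-like and 0.478 ± 0.288 in SGN-like cells), the β-tubulin Tubb6 (63.5 ± 20.5, 94.2 ± 52.3 and 3.59 ± 1.91) and the centrosomal dynein partner Nde1 (143.4 ± 26.2, 83.6 ± 36.1 and 7.20 ± 4.62). The fidgetin-like ATPase Fignl1 was also higher in glia-like cells (66.3 ± 14.0 against 2.80 ± 3.25), as was Ttll6 at levels under the floor of the shallowest sum. Map6, which stabilises neuronal microtubules, was among the lowest (5.09 ± 2.74 and 3.69 ± 2.22 against 333 ± 38.5), with Tuba4a and Mtus2 in glia-like cells and Ttll7 and Dclk3 in OM-like cells. Between OM-like and glia-like cells, 6 of 100 were higher and 25 lower, with Kif26a, Vash2 and Mtus2 the largest rises and Kif21a, Fign and Kif1a the largest falls. Over all genes, 11.6% were higher and 13.6% lower in OM-like cells.

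In HC-like cells of E18.5, 19 of 100 genes were higher and 58 lower than in SGN-like cells, where 57.2% of all genes were called (29.4% lower). The tubulin deglutamylase Agbl2 had 67.1 ± 6.12 normalised CPM against 0.247 ± 0.154 (n = 2 plates each), Map7 73.9 ± 1.81 against 1.02 ± 0.18, and the tubulin glycylase Ttll3 220 ± 29.3 against 9.40 ± 1.05, with edgeR adjusted p of 0.00012 or lower. Tubb4b, named after its values were seen, had 421 ± 77.2 against 112 ± 4.20 (log2 difference 1.98 ± 0.157, adjusted p = 0.000479). Map6, Map1a and the kinesin light chain Klc1 were the largest falls, with Klc1 at 107 ± 41.7 against 1764 ± 52.6.

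Among 10955 genes, those whose log2 level followed Tubb3 most closely over the 33 sums were Mapt, Stmn2, Elavl4, Elavl3 and Pcsk1n, with Pearson correlations from 0.979 to 0.987. The sums of a plate share a library preparation and the classes were named from markers that include Elavl3 and Elavl4, so these values describe likeness over these classes only. Within a plate the neurons varied in level: in the TrkCcre plate of E14.5 the middle of the distribution over 59 SGN-like cells ran from 1837 to 3940 CPM (first to last quartile) for Tubb3 and from 535 to 1026 for Dcx. In the larger P3 plate it ran from 955 to 1343 CPM for Tubb3 and from 132.7 to 362 for Dcx over 376 cells.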

How the data were processed

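The authors made single-end Smart-seq2 libraries, aligned uniquely mapped reads to mm10 with STAR in 2 passes and deposited raw counts per gene and well. Counting was with featureCounts. The annotation and read length are not given in the sources used here. The protocol does not mark strand, so reads of overlapping antisense genes cannot be told apart. Wells with over 1000 genes and under 5% ERCC counts were kept. Cells of each stage were clustered with scanpy 1.11.5 (2000 variable genes, 30 components, 30 neighbours, Leiden resolution 1) without the microtubule genes described here, and without the study's glial gene list, as features, and named from marker lists. The naming rule was revised once before any test. No doublet caller was run. SGN-like cells with glia or OM markers at or above the 5th percentile of that class were marked as mixed. So were glia-like, OM-like and HC-like cells with neuron markers at or above that of SGN-like cells. Mixed cells were left out as an alternative. Glia-like, OM-like and HC-like cells were not checked for markers of each other or of supporting cells. The percentile was taken at the same stage, or over all stages where that class had too few cells. Counts were summed per class and plate over at least 5 cells (3 for HC-like) and tested with edgeR 4.0.16 (filterByExpr, TMM, quasi-likelihood F test, Benjamini-Hochberg adjustment over all genes, threshold 0.05). Stage steps used all SGN-like sums, and class comparisons and changes per day the SS2_20 plates. The tests were tested on simulated counts. DESeq2 1.42.0 and limma 3.58.1 served as alternatives. A floor of 3 counts was 2.94 CPM in the shallowest sum (1018875 counts) and 0.0099 in the deepest (303906928), which covers counting error only. One plate matched no labelled sample and was left out. The 10 members were all named, with the 3 largest rises and falls of other microtubule genes per comparison. Members and lists were chosen with earlier results of these data known.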

Additional observations from a re-analysis of the deposited data

Results flagged for a closer look

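The change of Map1b per day differed between OM-like and glia-like cells of the SS2_20 plates, by −0.94 ± 0.112 on the log2 scale (edgeR adjusted p = 0.00344), in a test of the difference itself that was added after the slopes were seen. Map1b fell in OM-like cells and had a slope above 0 in glia-like cells. The numbers of OM-like cells behind the levels were 196 and 167 at E14.5, 23 and 25 at E15.5, 73 at E16.5 and 42 at E17.5, and their part in the difference was not tested.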

How the results depend on the processing

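Of 55 member results that passed the test, 38 passed under every alternative that gave a value, all 30 class comparisons against SGN-like cells among them, 17 were lost under at least 1, and 0 changed direction while called. Leaving out an E18.5 plate gave no test for HC-like cells. The plate was also tried as a replicate block, since cells of a plate share a library and a sort. With it the 6 comparisons within plates called 10, 10, 5, 10, 0 and 1 members, as without it.

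The number of members called moved as follows. From E14.5 to E16.5 it was 3 with the SS2_20 plate alone at E16.5, and from E16.5 to E18.5 it was 1 with mixed cells left out. From E18.5 to P3 it was 8 without TMM, with mixed cells left out and with limma-trend. The change per day in glia-like cells called 1 with DESeq2, 2 with glial genes kept as clustering features and 1 with cells weighted equally (limma-trend). In OM-like cells it called 2 without TMM, 4 with DESeq2 and 0 with limma-trend, and the OM-like minus glia-like difference called 0 without E14.5. Leaving out single plates gave 2 to 8 (E14.5 to E16.5), 0 to 3 (to E18.5), 4 to 5 (to P3, against 6), 1 to 3 (E14.5 to E15.5), 2 to 7 (OM-like against glia-like), 0 to 1 (glia-like per day), 0 to 3 (OM-like per day) and 0 to 1 (OM-like minus glia-like).

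Over all genes DESeq2 called 4272 from E14.5 to E16.5, 1861 to E18.5 and 2581 from E14.5 to E15.5, against 2777, 865 and 1104, and limma-trend 7397 and 3786 for the first 2. The SS2_20 plate alone at E16.5 gave 1028. Changes per day called 430 (SGN-like), 23 (glia-like), 138 (OM-like), 100 (glia-like minus SGN-like) and 18 (OM-like minus glia-like), against 1020, 167, 535, 336 and 209 with DESeq2 and 3278, 191, 2.53 times as many, 2088 and 106 with limma-trend. Without E14.5 the first 4 were 12, 1, 271 and 0. The block gave 51 and 4 for the differences, and glial genes as features gave 113 (glia-like), 193 and 59. Leaving out single plates gave 1598 to 3647, 86 to 915, 2150 to 2964 (to P3, against 4424) and 601 to 1667 for the stage steps.

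Signs turned for values that did not pass the test, and the cause was not tested. Map2 from E18.5 to P3 was −0.25 without TMM, −0.26 with mixed cells left out, −0.026 with glial genes as features and −0.25 with limma-trend. From E16.5 to E18.5 with mixed cells left out Map2, Mapt and Dcx were 0.17, 0.099 and 0.016, and Map2 was 0.041 with limma-trend. Map2 from E14.5 to E15.5 was −0.070 with limma-trend and Map1b −0.0024 with glial genes as features. Tubb4a from E14.5 to E16.5 was 0.11 with limma-trend and 0.13 with the SS2_20 plate alone. Tubb5 in OM-like against glia-like cells was 0.056 with DESeq2 size factors, 0.057 with DESeq2, 0.0052 without a filter, 0.018 with glial genes as features and 0.30 with limma-trend.

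Among changes per day, without E14.5 Tubb3, Tubb4a, Tubb5 and Tuba1a in SGN-like cells were 0.080, 0.017, 0.040 and 0.022, Tubb2a in glia-like cells 0.15, Tubb5 in OM-like cells 0.13, and Tuba1a and Dcx in glia-like minus SGN-like −0.061 and −0.057. With glial genes as features Tubb2a in glia-like cells was 0.030, Tuba1a and Mapt in glia-like minus SGN-like −0.064 and −0.042, and Tubb4a and Mapt in OM-like minus glia-like −0.094 and 0.039. With limma-trend Tubb4a was −0.0067 in glia-like and −0.060 in OM-like cells, Tubb3, Tuba1a, Mapt and Dcx in glia-like minus SGN-like 0.069, −0.12, −0.15 and −0.20, and Tubb2a, Tubb4a and Tuba1a in OM-like minus glia-like 0.15, −0.053 and 0.064. Tuba1a in glia-like minus SGN-like was also −0.012 with DESeq2 and with its size factors, −0.0053 without TMM and −0.0028 without a filter. Mapt in OM-like minus glia-like was 0.019 with the replicate block.

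Leaving out single plates gave −0.057 to 0.060 for Map1b and −0.33 to 0.0019 for Tubb4a from E14.5 to E15.5, −0.14 to 0.0017 for Tubb4a to E16.5, −0.18 to 0.19 for Map2 to P3 and −0.083 to 0.077 for Tubb5 in OM-like against glia-like cells. Per day it gave −0.054 to 0.046 for Tubb4a in SGN-like, −0.063 to 0.022 for Tubb2a in glia-like, and −0.017 to 0.13 for Tubb4a and −0.12 to 0.68 for Mapt in OM-like cells. In glia-like minus SGN-like it gave −0.085 to 0.29 for Dcx, −0.10 to 0.19 for Mapt, −0.014 to 0.069 for Tuba1a, −0.027 to 0.087 for Tubb4a and −0.13 to 0.030 for Tubb5. In OM-like minus glia-like it gave −0.32 to 0.34 for Mapt, −0.24 to 0.016 for Tubb2a, −0.24 to 0.17 for Tubb2b and −0.049 to 0.12 for Tubb4a.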
